A study of Mus musculus with 4 samples.

Results

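A set of 9 genes that rod photoreceptors use to detect light or to keep their identity was followed in developing mouse retina after an antagomir against miR-124-3p had been injected into the eye. The members were Gnat1, Pde6a, Pde6b, Pde6g, Cnga1, Cngb1, Sag, Nrl and Nr2e3. They were picked by gene symbol, with earlier results of these data known, and all 9 were found among the 48897 genes of the deposited table. The retinas came from wild-type mice labelled C57BL/6, which the study's methods give as C57BL/6J. On postnatal day 3 every animal received an intravitreal injection of 1 μl in each eye, with 0.6 nmol of miR-124-3p antagomir on the left (anti-miR-124 group) and a scrambled oligonucleotide of the same volume and concentration on the right (NC group). The retinas were taken on postnatal day 9. An antagomir is a chemically modified antisense oligonucleotide that blocks a mature microRNA, and no animal was without an injection. Each group had 2 RNA-Seq libraries made from mixed retinas of at least 2 litters. Each left-eye library shares a number with 1 right-eye library. The libraries are therefore named NC-A and anti-A for pair A, and NC-B and anti-B for pair B, and values below follow that order unless stated otherwise. Since both anti-miR-124 libraries are from left eyes, the eye and the treatment cannot be told apart. No label ties a library to its own set of animals, so p-values measure only the spread between these libraries. Mature microRNAs were not analysed here. The study's methods describe an RT-qPCR test of the knockdown before sequencing, whose data were not used here.

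The libraries held between 16317239 and 18726963 counts on genes. NC-A stood apart by lens RNA. Its 21 listed lens genes summed to 67127 TPM (transcript level, as counts divided by gene length and scaled to the same fixed sum in every library), with 177 to 240 TPM in the other 3 libraries, and this lowers every other TPM of NC-A. The median log2 TPM ratio of anti-miR-124 over NC for all genes tested was 0.10 in pair A but -0.0003 in pair B, and TPM differences are to be read relative to that. Values without NC-A are given where it decides a result. Rod markers fitted the labelled tissue, as Nr2e3 and Nrl ranked 27 and 41 by mean TPM among all listed genes.

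Rods carry out dim-light vision and are by far the most numerous cells of the mouse retina. Light leads to activation of the G protein transducin, and transducin releases the phosphodiesterase PDE6 from its inhibitory subunit. PDE6 then breaks down cGMP, the cation channel that cGMP holds open closes, and arrestin helps to end the signal. NRL directs photoreceptor precursors to the rod fate, and NR2E3, which it induces, keeps cone genes silent in rods. In the first postnatal weeks of the mouse, rods finish their birth and build up this machinery.

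The homeodomain factor CRX and NRL act together on many rod promoters, so 2 promoters of the set are shown with short DNA words associated with these factors. RefSeq windows (build GRCm38.p6), each from 250 bases before to 50 bases after an annotated start site, were available for 6 members. Capitals mark the core word TAATCC of CRX or its reverse complement GGATTA, and the half-site word TGCTGA of NRL or its reverse complement TCAGCA. The Sag window lies at chr1:87803430-87803729 on the plus strand and the Cngb1 window at chr8:95306536-95306835 on the minus strand, and both are printed 5′ to 3′ on the strand of the gene. The Sag window lies inside the gene as deposited, which begins at chr1:87800167, so its start site is not that of the counted gene. The same holds for the Nrl and Nr2e3 windows, which hold neither word and are not shown.
Sag: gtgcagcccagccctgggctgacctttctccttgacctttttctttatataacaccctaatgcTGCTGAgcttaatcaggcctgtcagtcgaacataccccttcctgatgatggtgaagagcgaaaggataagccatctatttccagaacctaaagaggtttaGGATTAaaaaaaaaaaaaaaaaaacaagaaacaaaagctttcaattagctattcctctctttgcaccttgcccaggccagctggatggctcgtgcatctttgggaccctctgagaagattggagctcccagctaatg
Cngb1: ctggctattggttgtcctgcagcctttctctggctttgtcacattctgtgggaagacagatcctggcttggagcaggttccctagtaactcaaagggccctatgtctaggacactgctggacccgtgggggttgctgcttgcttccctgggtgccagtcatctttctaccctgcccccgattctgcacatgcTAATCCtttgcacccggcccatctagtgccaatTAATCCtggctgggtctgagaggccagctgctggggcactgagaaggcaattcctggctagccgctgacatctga
The CRX word in the Sag window began 87 bases before the start site and the NRL word 187 bases before it. In the Cngb1 window, CRX words began 58 and 25 bases before the start site. A CRX word was found in 3 of the 6 member windows (Sag, Cngb1 and Cnga1) and in 7.06% of all 32851 promoter windows of this length. The NRL word was found in 2 of the 6 (Sag and Pde6b) and in 19.5% of all windows. A match is a description of the letters and does not show binding. The words did not overlap one another, and Sag was the 1 member window with both, against 1.36% of the counted windows.

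Levels of different genes were compared per length, as TPM. The identity factors stood at the top. Nr2e3 had 1713, 1866, 1835 and 2086 TPM in NC-A, anti-A, NC-B and anti-B. Nrl lay between 1338 and 1662 TPM over the 4 libraries. Sag, which encodes rod arrestin, Pde6g and Pde6b followed with 935 to 1166, 997 to 1095 and 921 to 1123 TPM. These 3 changed places from library to library, with Sag above Pde6g in 2 of 4 libraries and Pde6g above Pde6b in 2 of 4, so their levels did not differ beyond their spread. The channel subunits were lower, at 384 to 411 TPM for Cnga1 and 223 to 267 TPM for Cngb1. Gnat1, the alpha subunit of rod transducin, had 159 to 224 TPM, and Pde6a had 133 to 164 TPM. Gnat1 was above Pde6a in 3 of 4 libraries, and anti-A was the exception. All other neighbours in this order kept it in all 4 libraries. In anti-A and anti-B the levels of Gnat1 and Pde6a lay side by side, at 159 and 159 TPM and at 164 and 161 TPM.

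**Figure D1:**
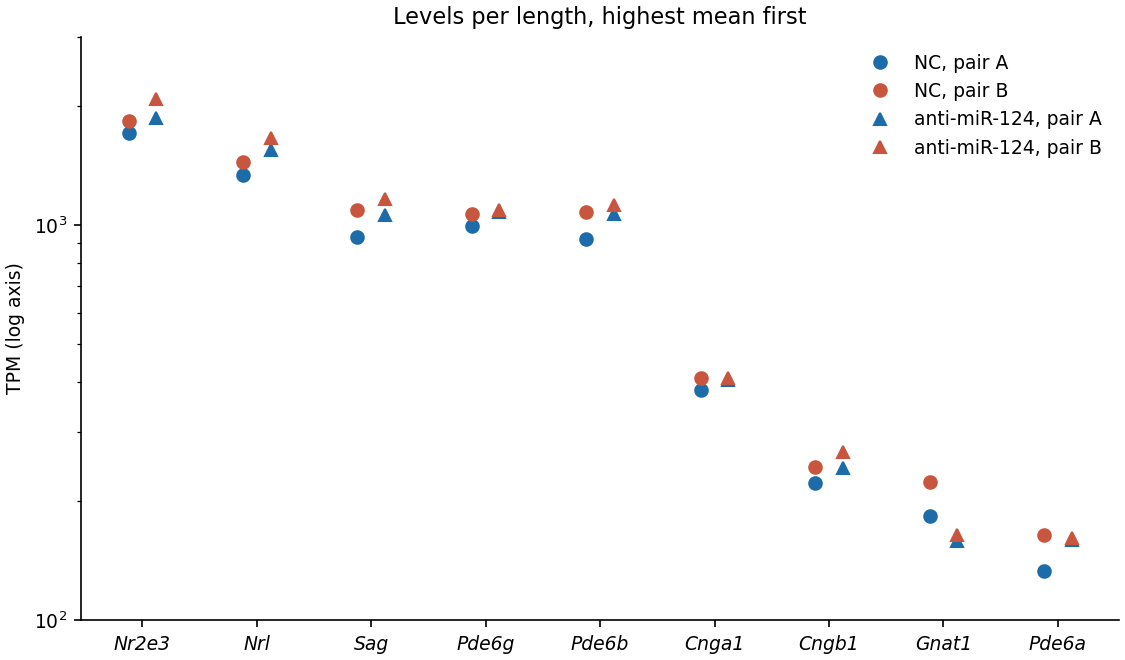
TPM of the 9 rod genes on a log axis, ordered by their mean over the 4 libraries. Circles are NC and triangles anti-miR-124 libraries, in 1 colour per pair. Nr2e3 and Nrl are highest, Sag, Pde6g and Pde6b overlap, and Gnat1 is the gene whose NC points both lie above both of its anti-miR-124 points.

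The comparison asked which rod genes differ in level when miR-124-3p is inhibited. Gnat1 was lower in the anti-miR-124 libraries, the other 8 members lay between -0.01 (Cnga1) and 0.16 (Nrl) on the log2 scale, and no difference passed the test after adjustment for all genes. Differences are given on CPM (counts scaled to the same fixed library total) adjusted by TMM, a factor per library that keeps the bulk of genes level. The counts of 17766 genes were tested by the quasi-likelihood method of edgeR. All 9 members passed the filter on low counts, with 1828 to 35889 counts per library. Of all genes tested, 0 (0%) had a Benjamini-Hochberg adjusted p-value under 0.05 in edgeR, and DESeq2's Wald test called 34, none of them a member. At an unadjusted p-value under 0.05, 396 genes (2.23%) had the higher level in the anti-miR-124 group and 298 (1.68%) the lower one, and DESeq2 gave 354 in all. Among the members, Nrl was the 1 higher gene and Gnat1 the 1 lower gene at that limit. In a bulk tissue library, fewer rods and less RNA of a gene per rod cannot be told apart.

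Gnat1, on chr9:107674474-107679592, stood out from the other members by its direction and size. Its TMM-normalized CPM was 133 in NC-A, 107 in anti-A, 148 in NC-B and 109 in anti-B. Both anti-miR-124 libraries were below both NC libraries, and they differed from each other by less than the NC libraries did. Within the pairs the log2 ratios were -0.32 (A) and -0.44 (B). The fitted log2 fold change was -0.38 (standard error, SE, 0.08), a difference of -23.2% in level. The unadjusted p-value was 0.00281 and the adjusted p-value 0.989 (edgeR). By TPM, the log2 ratio of pair A was -0.21, with an exact 95% counting interval from -0.30 to -0.12, and that of pair B was -0.45, from -0.53 to -0.36. These intervals cover the counting error of 1 library against another and not the spread between animals. They also do not cover the lens RNA of NC-A. By TPM without the lens genes the log2 ratio of pair A was -0.31, outside its interval. The difference had the same direction in all 11 alternative fits, from -0.46 without NC-A to -0.30 without NC-B. Over these fits the adjusted p-value ran from 0.00754 to 1.000, the lowest being the edgeR fit with no filter on low counts.

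**Figure D2:**
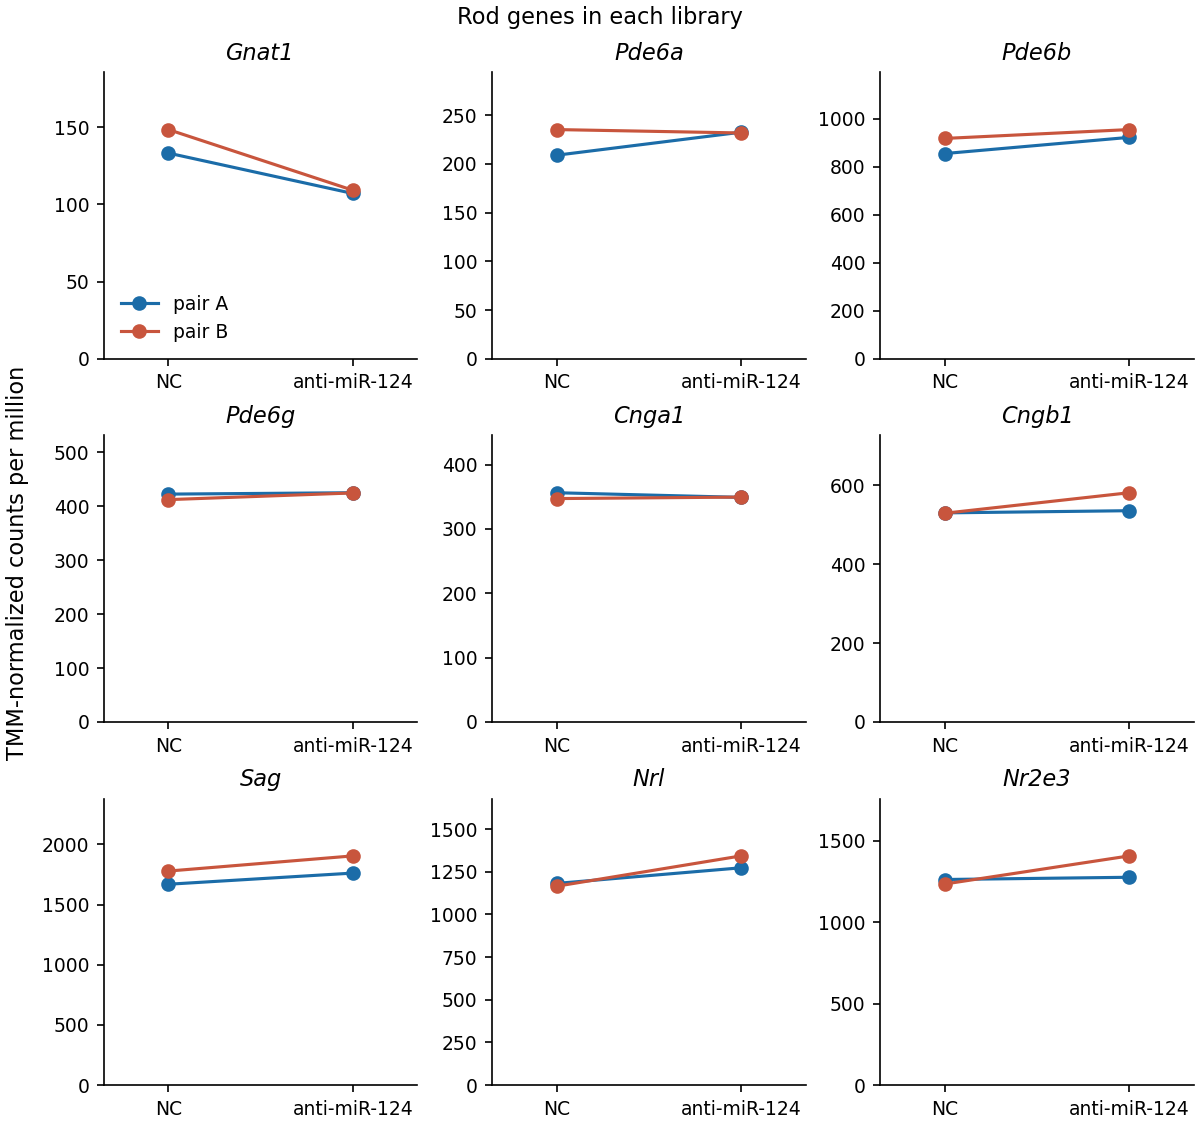
TMM-normalized CPM of each member in both groups, with the 2 libraries of a pair joined by a line and each axis starting at 0. Gnat1 is lower on the anti-miR-124 side, at 107 against 133 in pair A and 109 against 148 in pair B, while the lines of the other members are close to level.

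The effector enzyme PDE6 of rods is built from 2 catalytic subunits, encoded by Pde6a (chr18:61220499-61289750) and Pde6b (chr5:108388373-108431743), and an inhibitory subunit encoded by Pde6g (chr11:120447607-120453500). Pde6b had a TMM-normalized CPM of 854 in NC-A, 922 in anti-A, 917 in NC-B and 954 in anti-B. The anti-miR-124 libraries were the 2 highest, but anti-A and NC-B were nearly equal. This gave a log2 fold change of 0.08 (SE 0.05, adjusted p = 0.989, edgeR), which was 0.03 without NC-A and 0.13 without NC-B. Pde6g had a CPM of 423, 425, 412 and 425 in the same order. Its log2 fold change of 0.03 (SE 0.06, adjusted p = 0.989, edgeR) was the smallest in size of the 3 subunits, and it was 0.04 without NC-A and 0.007 without NC-B. Pde6a had a CPM of 209, 233, 235 and 232, so that NC-A was the low value and the other 3 libraries were close together. Its log2 fold change was 0.06 (SE 0.08, adjusted p = 0.989, edgeR) with all libraries, -0.02 without NC-A and 0.15 without NC-B. The proportion of the catalytic subunits overlapped between the groups. Pde6a stood at 0.144, 0.149, 0.151 and 0.143 of the TPM of Pde6b, a mean log2 difference of -0.02 ± 0.09 (SD, n = 2 pairs, exact permutation p = 0.667, two-sided). With 2 libraries a group this test cannot go below 0.333.

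The cGMP-gated channel of rods consists of the pore-forming subunit encoded by Cnga1 (chr5:72603696-72642752) and the modulatory subunit encoded by Cngb1 (chr8:95239043-95306585). Cnga1 was the steadiest member, with a TMM-normalized CPM of 356 in NC-A, 349 in anti-A, 347 in NC-B and 349 in anti-B. Its log2 fold change was -0.01 (SE 0.06, adjusted p = 0.997, edgeR), and the sign depended on the scale, since by TPM the log2 ratios were 0.08 and 0.01. Without NC-A the fitted value was 0.01, and without NC-B it was -0.03. Cngb1 had a CPM of 529.5, 535, 529 and 581, so that 3 libraries were alike and anti-B was high. The log2 fold change of Cngb1 was 0.08 (SE 0.06, adjusted p = 0.989, edgeR), and it was 0.02 without anti-B and 0.13 without anti-A. The TPM ratio of Cnga1 to Cngb1 was 1.72, 1.67, 1.68 and 1.54. It was lower in both anti-miR-124 libraries, with a mean log2 difference of -0.09 ± 0.06 (SD, n = 2 pairs, exact permutation p = 0.333, the smallest this design allows).

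Sag (chr1:87800167-87845158) had the highest count of the members, though not the highest level per length. Its TMM-normalized CPM was 1669 in NC-A, 1761 in anti-A, 1778 in NC-B and 1904 in anti-B. The anti-miR-124 library was the higher one of each pair, but the groups overlapped, as NC-B was above anti-A. The log2 fold change of Sag was 0.09 (SE 0.05, adjusted p = 0.989, edgeR). It was 0.04 without anti-B and without NC-A, 0.14 without anti-A and 0.13 without NC-B.

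Both identity factors were somewhat higher in the anti-miR-124 group. Nrl (chr14:55518978-55524981), a leucine zipper transcription factor, had a TMM-normalized CPM of 1182 in NC-A, 1273 in anti-A, 1165 in NC-B and 1343 in anti-B. Both anti-miR-124 libraries were above both NC libraries, and the NC libraries were nearly alike. The log2 ratios of the pairs were 0.11 (A) and 0.20 (B), and the fitted value was 0.16 (SE 0.04), a level 11.5% higher. Its unadjusted p-value was 0.0114 and its adjusted p-value 0.989 (edgeR). The unadjusted p-value was 0.073 with the pair number as a block, 0.105 without NC-A and 0.153 without NC-B, so the unadjusted limit was not met in those 3 fits. Nr2e3 (chr9:59942771-59960834), an orphan nuclear receptor, had a CPM of 1261, 1275, 1234 and 1406. The groups did not overlap, but the pairs were unequal, with log2 ratios of 0.02 and 0.19. Its log2 fold change was 0.10 (SE 0.06, adjusted p = 0.989, edgeR), and it was 0.04 without anti-B and 0.17 without anti-A. Nrl, Sag, Cngb1 and Pde6b also had their highest CPM in anti-B.

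**Figure D3:**
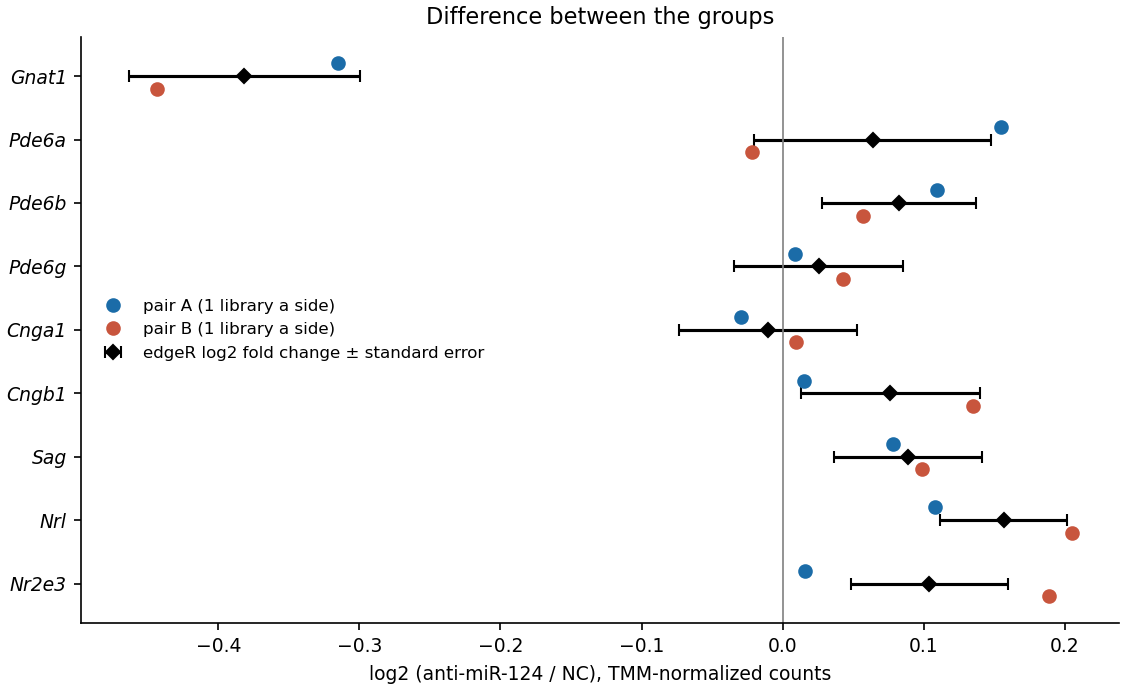
Log2 ratio of anti-miR-124 to NC for the 9 members on TMM-normalized counts, with 1 point per pair and the edgeR log2 fold change with its SE as a diamond. Gnat1 lies at -0.38, away from the other genes, which lie between -0.01 and 0.16.

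In count, 6 of 9 members were higher in both pairs on TMM-normalized counts, against 22.8% of all genes tested, and 1 of 9, Gnat1, was lower in both, against 24.0% of all genes. The groups did not overlap for 5 members that were higher (Pde6b, Pde6g, Cngb1, Nrl and Nr2e3), against 16.5% of all genes, and for 1 that was lower (Gnat1), against 16.8%. Several of these calls were near ties. In pair A the log2 ratio was 0.009 for Pde6g, 0.015 for Cngb1 and 0.016 for Nr2e3. The groups of Pde6g were parted by only 423 in NC-A against 425 in anti-B. The members are genes of the same cell type, so such counts are not counts of independent genes. The median log2 fold change over all 9 was 0.08, beside 0.0007 over all genes tested, and it was 0.04 without anti-B and without NC-A. Summed over the 9 genes, the TMM-normalized CPM was 6617 in NC-A, 6880 in anti-A, 6766 in NC-B and 7303 in anti-B. This is a mean log2 difference of 0.08 ± 0.04 (SD, n = 2 pairs, exact permutation p = 0.333, the smallest possible). Set against its signaling partners in the same library, Gnat1 had 0.199, 0.148, 0.206 and 0.146 of the TPM of Pde6b. Against Sag these shares were 0.196, 0.149, 0.205 and 0.141. Such ratios within a library do not depend on the scaling between libraries, and both were lower in the 2 anti-miR-124 libraries than in the 2 NC libraries (exact permutation p = 0.333 each, the smallest possible).

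A list of 16 other genes of the rod light response was examined in the same fit, and all were tested. None had an adjusted p-value under 0.05 in edgeR, 1 was higher and 3 were lower at an unadjusted p-value under 0.05, and the median log2 fold change was -0.05. Both anti-miR-124 libraries were below both NC libraries for 7 of the 16 and above them for 3, against 16.8% and 16.5% of all genes. In both pairs, 9 of the 16 were lower and 3 higher, against 24.0% and 22.8% of all genes. The 3 genes lower at the unadjusted limit were the gamma subunit of rod transducin and both guanylate cyclase activators, which switch cGMP synthesis back on when calcium drops. Gngt1, the transducin gamma subunit, had 5333, 4702, 5528 and 4843 counts, with a fitted log2 fold change of -0.26 (SE 0.08, unadjusted p = 0.0137). Like Gnat1 it was lower in both anti-miR-124 libraries, and the TPM ratio of Gnat1 to Gngt1 overlapped between the groups, at 0.555, 0.536, 0.669 and 0.586. Guca1a had 400, 278, 398 and 185 counts, with a value of -0.85 (SE 0.22). Guca1b had 168, 102, 159 and 99 counts, with a value of -0.78 (SE 0.19). On TMM-normalized counts the log2 ratios in pairs A and B were -0.61 and -1.17 for Guca1a and -0.80 and -0.75 for Guca1b. Those of the cone gene Gnat2 were -0.54 and -1.12. Which cell type the differences of Guca1a and Guca1b come from was not tested. Gnb1, the transducin beta subunit, which many cell types also express, was the higher gene, at 0.08 (SE 0.03). The fitted values of the 3 transducin subunits thus differed in sign. The photoreceptor kinase gene Grk1 (-0.05, SE 0.10), the photoreceptor guanylate cyclase genes Gucy2e (0.03, SE 0.08) and Gucy2f (-0.10, SE 0.07, both anti-miR-124 libraries below both NC libraries) and Pdc, which encodes the transducin-binding phosducin (-0.05, SE 0.04), lay nearer to 0. Without NC-A, 2 of the 16 genes met the unadjusted limit in place of 4.

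The transcription regulators that act with Nrl and Nr2e3 in photoreceptors were close to level. Of 10 genes in this list, none had an unadjusted or adjusted p-value under 0.05 in edgeR, and the median log2 fold change was 0.02. The highest values were those of Esrrb (0.21, SE 0.09), an NRL-dependent nuclear receptor, and Casz1 (0.14, SE 0.08). The lowest were Otx2 (-0.03, SE 0.06), which sets the photoreceptor fate, and Samd7 (-0.009, SE 0.10). Crx, with 1618 to 1793 TPM, had a log2 fold change of -0.005 (SE 0.04). Without anti-A, 4 of the 10 met the unadjusted limit and the median was 0.10.

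Cones use a parallel cascade built from their own subunits, and these genes served as the closest comparison. On TMM-normalized counts, 9 of the 10 listed cone genes had both anti-miR-124 libraries below both NC libraries, against 16.8% of all genes. At an unadjusted p-value under 0.05, 6 were lower, none was higher, and none passed after adjustment in edgeR. The 6 were the opsin genes Opn1mw (log2 fold change -1.09, SE 0.35) and Opn1sw (-0.82, 0.14), the transducin gene Gnat2 (-0.80, 0.19), the phosphodiesterase genes Pde6c (-0.62, 0.22) and Pde6h (-0.33, 0.14), and the arrestin gene Arr3 (-0.61, 0.25). Over the 10 cone genes the median was -0.48 in the fit, -0.23 for pair A alone and -0.76 for pair B. It was -0.19 without anti-B and -0.82 without anti-A, and the count of 6 became 3 without anti-B and 2 without NC-B. The remaining gene was Gnb3, the beta subunit of cone transducin, at 0.05 (SE 0.07). Set against its cone counterpart by TPM in the same library, each of 7 rod genes stood higher in anti-A than in NC-A and higher in anti-B than in NC-B. Sag had 41.9, 56.1, 50.8 and 107 times the TPM of the cone arrestin Arr3. Pde6b had 16.6, 21.2, 16.5 and 36.4 times the TPM of the cone catalytic subunit Pde6c. Gnat1 was the member closest to its counterpart, the cone transducin gene Gnat2, with ratios of 2.04, 2.39, 2.40 and 3.83. Its ratio was the 1 of 7 whose groups overlapped, and its mean log2 difference was 0.45 ± 0.32 (SD, n = 2 pairs, exact permutation p = 0.667). The other 6 ratios did not overlap between the groups and reached the smallest p the design allows (exact permutation p = 0.333 each, not adjusted over the 7). The mean log2 difference of these 6 ran from 0.22 for Cngb1 over Cngb3 to 0.75 for Sag over Arr3. The cone genes in these ratios, with Pde6c in 2 of them, were among those lower in both anti-miR-124 libraries. The ratios are therefore no separate result about the rod genes. All 7 ratios differed more in pair B than in pair A. The summed TPM of the 9 members was 5.22, 6.14, 5.29 and 7.08 times that of the cone list, a mean log2 difference of 0.33 ± 0.13 (SD, n = 2 pairs, exact permutation p = 0.333). A large part of the cone sum of 1307, 1237, 1429 and 1149 TPM came from Gnb3, with 576, 611, 624 and 680 TPM. For comparison, Gnat2 had 43 to 93 TPM. Which cell types the Gnb3 RNA came from was not tested, so the cone sum cannot be read as RNA of cones alone.

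**Figure D4:**
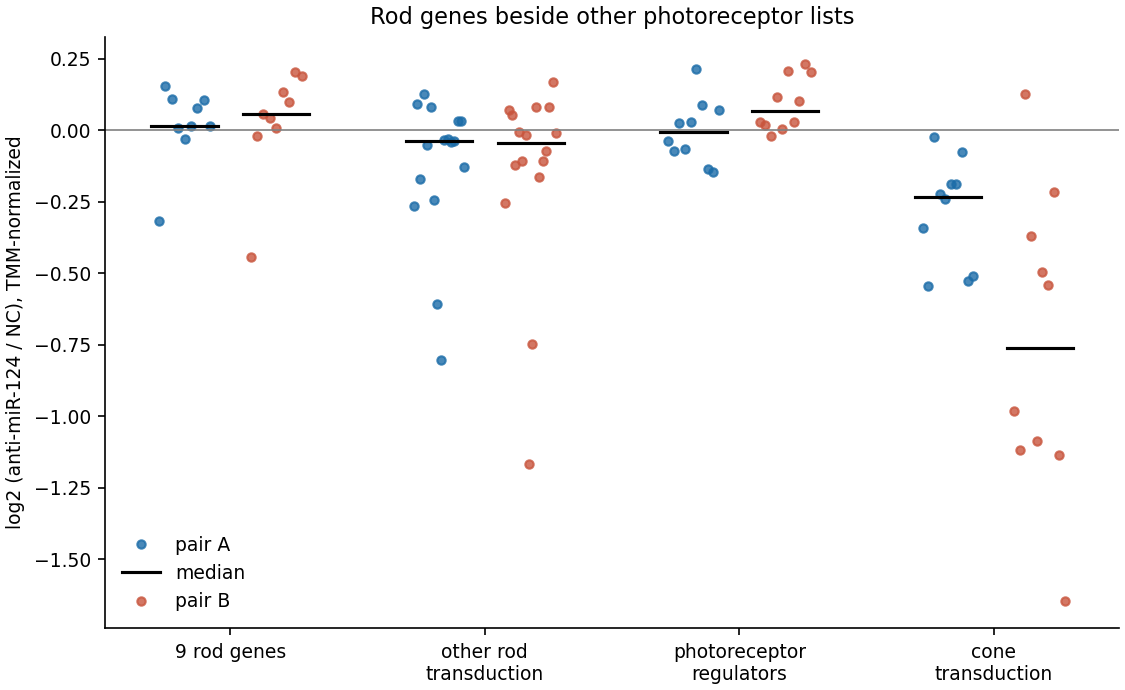
Log2 ratio of anti-miR-124 to NC on TMM-normalized counts for each tested gene of 4 lists, with pairs A and B side by side and a bar at each median. The 9 rod genes lie near 0 except Gnat1, the other rod transduction genes near 0 except for a few lower genes, and the cone genes have medians of -0.23 (pair A) and -0.76 (pair B).

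**Figure D5:**
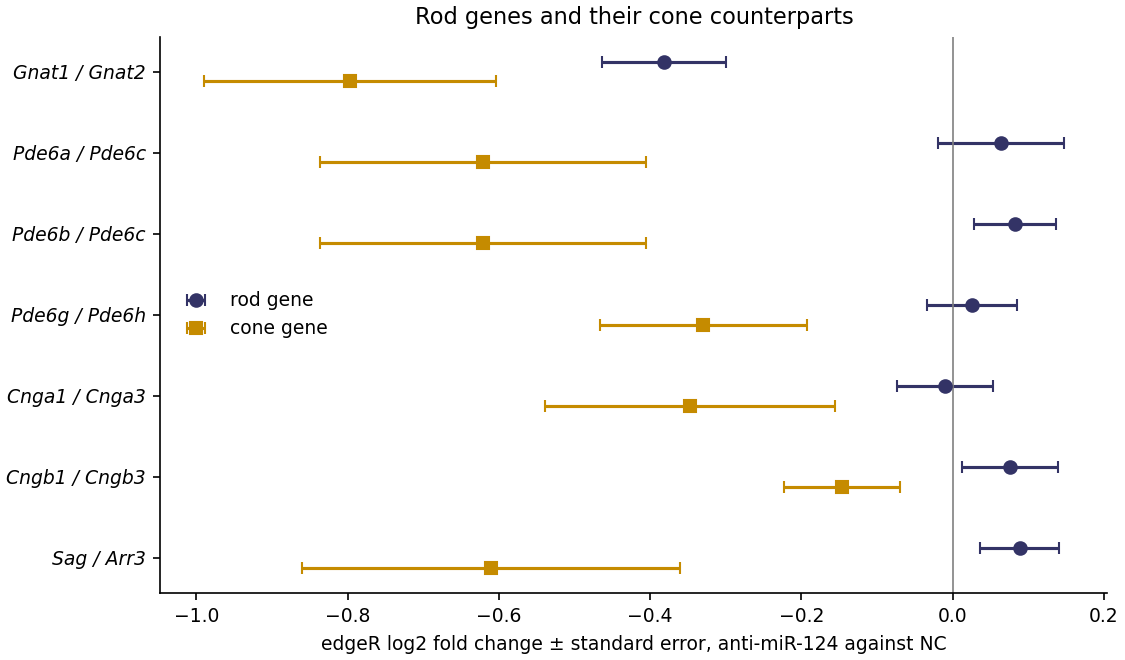
edgeR log2 fold change with its SE for 7 rod genes and their cone counterparts, Pde6c being the counterpart of both Pde6a and Pde6b. Gnat1 is at -0.38 beside Gnat2 at -0.80, and the other rod genes lie near 0 beside cone genes between -0.62 and -0.15.

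Libraries differed in the marker RNA of other cell types as well, and the part of these differences in the values above was not tested. Cell number and RNA per cell cannot be told apart here either. The 10 microglia genes summed to 115 to 153 TPM in the NC group and to 146 and 366 TPM in anti-A and anti-B. The 6 astrocyte and gliosis genes summed to 406 and 599 TPM in the NC group and to 432 and 907 TPM in anti-A and anti-B, with Edn2 at 0 counts in anti-A as the 1 gene of the list at 0 in any library. On TMM-normalized counts the median log2 ratios in pairs A and B were 0.45 and -0.48 for the 8 ganglion cell genes, 0.16 and -0.30 for the 10 bipolar cell genes and 0.24 and 0.20 for the 4 horizontal cell genes. They were 0.09 and -0.08 for the 8 amacrine genes, 0.04 and 0.04 for the 8 Müller glia genes and -0.16 and 0.21 for the 7 progenitor and cell cycle genes. For the 6 endothelial genes they were -0.03 and -0.14, and for the 7 tested of 8 pigment epithelium genes 0.92 and -0.02. The log2 ratio of Gnat1 was -0.32 in pair A, with a microglia median of -0.20, and -0.44 in pair B, with one of 1.68. A link between them was not tested. At an unadjusted p-value under 0.05 (edgeR, none after adjustment), genes of these lists were Apoe of Müller glia at a log2 fold change of 0.56, Lhx1 (0.44) and Onecut2 (0.23) of horizontal cells, C1qc (1.00) and Csf1r (0.66) of microglia, and the gliosis gene Serpina3n (4.15). Serpina3n had 17, 17, 13 and 572 counts, with anti-B the 1 high library. Anti-B was also the high library for Apoe, C1qc and Csf1r, whose log2 ratios were 0.08, 0.0005 and 0.07 in pair A and 0.94, 1.73 and 1.18 in pair B. Of the 19 lens genes tested, 18 were lower at that limit, with a median log2 ratio of -8.55 in pair A against 0.25 in pair B.

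The mean profile of the members over the 4 libraries was flat, with Gnat1 included. The mean deviation of their log2 TMM-normalized level from its own mean was -0.03, -0.02, 0.01 and 0.04. For Gnat1 alone the deviations were 0.11, -0.20, 0.27 and -0.18. Gnat1 was lower in both pairs, while 6 members were higher in both. The mean profile therefore averages over members that differ in direction. Among 2082 other genes with a mean TPM of at least 100, the smallest Euclidean distances to this profile were those of Tmx2 (0.0084), Actr1b (0.0163), Trip12 (0.0183), Kdm4c (0.0183) and Socs7 (0.0217). These distances rest on 4 libraries and on small deviations, and they describe likeness to that average and not to each member. Taken singly, Gnat1 was the member farthest from the mean profile of the other 8, at a distance of 0.46, followed by Nrl at 0.16, and the other 7 lay between 0.08 and 0.13. Genes that overlap the members in position had few counts, up to 120 per library for Gm38609 on the strand opposite to Sag and for Gm34204 on the strand opposite to Pde6b, and none overlaps Gnat1 or Nrl in the deposited table.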

How the data were processed

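The authors deposited raw read counts per gene, without normalization, for 2 libraries of each group, with gene lengths and positions. The libraries were made with a directional kit, the submitters' processing notes name HISAT2 and mm9, and the counting tool and its strand setting are not given in the sources used here. Of 36837 symbols matched to RefSeq genes of GRCm38, 99.8% overlapped in position, so positions were read as GRCm38. Columns were assigned to groups by the eye they name. The 4 deposited RPKM columns were not used. TPM was computed from counts and lengths. Counts were tested with edgeR 4.0.16 in R 4.3.3 (TMM, filterByExpr, two-sided quasi-likelihood test, Benjamini-Hochberg adjustment over all tested genes, threshold 0.05). Alternatives were DESeq2 1.42.0, other scalings and filters, a block for the shared number and leaving out each library. The edgeR and DESeq2 fits were tested on simulated data. Single values were compared by exact permutation over libraries, and counting intervals are Clopper-Pearson at 95%. Tables were computed in Python 3.11.15 (scipy 1.17.1).

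The members and the 14 other lists were chosen with earlier results of these data known. The text names every member and the 5 genes most like the mean profile of the members. For each other list it names the genes with an unadjusted p-value under 0.05 or else its 2 highest and 2 lowest. As exceptions, the lens genes and the other cell type lists without such a p-value are given by sums, counts or medians. Grk1, Gucy2e, Gucy2f, Pdc, Crx, Gnb3, Edn2 and the genes overlapping members were chosen after their values were seen. No libraries were duplicates, since every chi-square per degree of freedom was 3.69 or more. A gene named in the plan is not reported here.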

Additional observations from a re-analysis of the deposited data

How the results depend on the processing

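Across 11 alternative fits each, Gnat1, Pde6b, Pde6g, Cngb1, Sag, Nrl and Nr2e3 kept their direction. Leaving out each library in turn gave log2 fold changes from -0.0181 to 0.15 for Pde6a and from -0.0293 to 0.00967 for Cnga1, with the sign turned without NC-A in both. Gnat1 had a log2 fold change of -0.37 and passed the adjusted threshold when no filter on low counts was used, where 379 genes were called and 1577 had an unadjusted p-value under 0.05. DESeq2's Wald test gave 34 and 354. With the replicate block, 376 genes met the unadjusted limit and 0 the adjusted one, and 1 of the 9 members met the unadjusted limit in place of 2. The correlation of same-numbered libraries' deviations was -0.16. With 2 libraries a group it compares only 1 difference per group, and that of the NC group holds the lens RNA of NC-A. It therefore cannot decide whether the shared numbers mark pairs. With the numbers crossed, a fit chosen after seeing the data, 160 genes were called and 1306 met the unadjusted limit. Leaving out 1 library gave 0 to 256 called genes, 333 to 1893 at the unadjusted limit and 1 to 4 of the 9 members. These counts were highest without anti-A, where Sag and Nr2e3 joined Gnat1 and Nrl. The median of the photoreceptor regulators ran from 0.00207 to 0.0987 over these fits. The mean log2 difference of the summed members was 0.13 by TPM, 0.0803 by TPM without the lens genes, 0.0833 by TMM and 0.0915 per total counts. In pair A the log2 difference was 0.15 by TPM and 0.05 by TPM without the lens genes, and in pair B it was 0.11 by both. The cause of the remaining differences between scales was not tested. The members had at least 1828 counts per library. The part of depth and of the number of libraries in the missing calls was not tested.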
